A study of Macaca fascicularis with 3 samples.

Results

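The DNA replication and S phase genes described here are 36 listed genes whose products license origins, unwind DNA, copy it, supply nucleotides or time the start of S phase. They were taken by symbol from the feature names of the deposited matrices, without use of any measured value, and 35 of the 36 were found among 26017 features. POLD1, the catalytic subunit of DNA polymerase delta, was not found under that symbol and was not analysed here. The study cultured germ cells of the cynomolgus monkey (Macaca fascicularis), made from embryonic stem cells, inside xrOvaries, which are aggregates with ovarian somatic cells of mouse fetuses, and profiled them at the culture time coded ag49+52. There were 3 libraries of 10x Genomics 3' single-cell RNA (kit v3.1), 1 for each mouse stage, which gives a library its name here: E13.5, E14.5 or E15.5, the day of embryonic development. All 3 used the line 15XRi-AGVT#7, labelled wildtype, which carries the reporters TFAP2C-EGFP and DDX4-tdTomato and is a single line, so the libraries do not sample different animals. Monkey cells positive for a reporter and mouse cells without one were sorted apart, then combined for loading. The labels call the cells early oogonia.

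A cell prepares for replication in G1, when ORC, CDC6 and CDT1 load the MCM2-7 helicase on origins. At the start of S phase E2F factors and cyclin E-CDK2 raise and fire the machinery: CDC45 and GINS turn MCM2-7 into the active helicase, primase and polymerases alpha, delta and epsilon copy the strands, and RFC loads the sliding clamp PCNA. Female fetal germ cells divide by mitosis as oogonia, then STRA8 rises under retinoic acid, a last premeiotic S phase follows, and the cells enter meiotic prophase, where SYCE3 helps build the synaptonemal complex and no further round of genome replication takes place.

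Germ cells were barcodes with 2% to 20% of their UMIs (unique molecular identifiers, 1 for each captured RNA molecule) in the 13 mitochondrially encoded genes and at least 10000 UMIs. They numbered 537, 536 and 1113 in the E13.5, E14.5 and E15.5 libraries, with medians of 55620, 43003 and 48553 UMIs, and mouse barcodes (under 2%, at least 1000 UMIs) numbered 1665, 725 and 1775. Each germ cell was placed by its own level of 3 state genes in CPM, that is per 1000000 UMIs of the cell or summed cells: SYCE3-high at 400 CPM or more, POU5F1-high at 300 CPM or more (435 cells), STRA8-positive at 50 CPM or more (503 cells), and unmarked where none was reached (1097 cells). A cell past both the SYCE3 and the STRA8 limit was counted as SYCE3-high, so these 2 states differ in SYCE3 but can share STRA8. Of the 532 cells past the STRA8 limit, 503 were placed as STRA8-positive. POU5F1 is a pluripotency factor kept in early germ cells. The POU5F1-high state held 11.9% to 24.3% of a library's germ cells, and the SYCE3-high state 6.29% to 7.28%, or 36, 39 and 70 cells. These states are ranges of a score: 57, 382 and 106 cells lay within 1.5-fold of the POU5F1, STRA8 and SYCE3 limits. Marker levels bore out this label in some of the cells only. The 6 early oogonia markers summed to 2160 CPM in POU5F1-high cells against 39.8 CPM in SYCE3-high cells, while the 9 meiotic markers summed to 118 and 3985 CPM. Of the 2186 germ cells, 54 had under 100 CPM of the germ cell genes DDX4 and DAZL together. No barcode was a germ cell in more than 1 library, but 669 germ barcodes were also listed in another library with few UMIs. Calls lost without them are named below. Their share was uneven between the states. Not listed elsewhere were 427 of the 435 POU5F1-high, 721 of the 1097 unmarked and 320 of the 503 STRA8-positive cells. Of the 36, 39 and 70 SYCE3-high cells only 45 were not listed elsewhere. Such barcodes were thus rarest in POU5F1-high and most frequent in SYCE3-high cells, so their share differs between states that are compared below.

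Summed over the 35 members, replication RNA was higher in SYCE3-high than in unmarked and STRA8-positive cells, while its place against POU5F1-high cells depended on the scaling. The sum was 2578 ± 91.4 CPM in POU5F1-high cells, 3059 ± 109 CPM in unmarked cells, 3016 ± 218 CPM in STRA8-positive cells and 3922 ± 152 CPM in SYCE3-high cells (mean ± SD, n = 3 libraries), so that on CPM the SYCE3-high libraries lay above all others. Divided by the TMM factors that the tests use, which equalise the bulk of genes between sums, it was 3429 ± 114, 2861 ± 36.8, 2763 ± 168 and 3438 ± 58.4 in the same order (mean ± SD, n = 3 libraries). On that scale the SYCE3-high and POU5F1-high libraries overlapped, and both lay above the other states. Cells thinned to 10000 UMIs each, which scales by totals as CPM does, had medians of 20 to 21 member UMIs in POU5F1-high cells and 38 to 39 in SYCE3-high cells, against 3 to 4 in mouse barcodes. The share of S-gated cells, the 729 germ cells with the highest level of 12 other S phase genes such as HELLS and ATAD2, was 33.1 ± 6.71% in POU5F1-high cells, 34.8 ± 9.34% in unmarked cells, 27.7 ± 12.4% in STRA8-positive cells and 69.1 ± 0.455% in SYCE3-high cells. The gate was cut on CPM, so the place of POU5F1-high cells in these shares depends on the scaling too. Genes of G2 and M phase summed to 2297 ± 358, 4429.6 ± 449.6, 2843 ± 308 and 3134 ± 978 CPM in the same 4 states. In SYCE3-high cells that sum was 2675, 4257 and 2469.8 CPM in the 3 libraries, above STRA8-positive cells in E14.5 and below them in E13.5 and E15.5. Between single members the order of states differed: 19 of 35 were highest in SYCE3-high cells, 6 in STRA8-positive cells, 6 in unmarked cells and 4 in POU5F1-high cells, by mean CPM. After division by the TMM factors the numbers were 14, 3, 2 and 16. The order of states was not counted over all genes, so these counts have no background beside them.

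**Figure D1:**
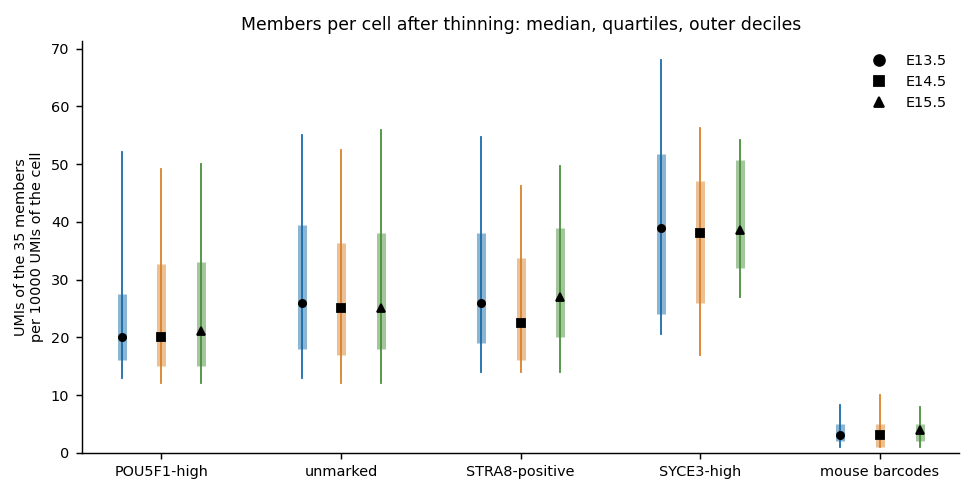
UMIs of the 35 members in germ cells of each state and in mouse barcodes, after each cell was thinned to 10000 UMIs, a scaling by totals. The marker is the median cell, the thick bar the quartiles and the thin line the outer deciles, for each library. SYCE3-high medians lie at 38 to 39 and POU5F1-high medians at 20 to 21 UMIs.

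**Figure D2:**
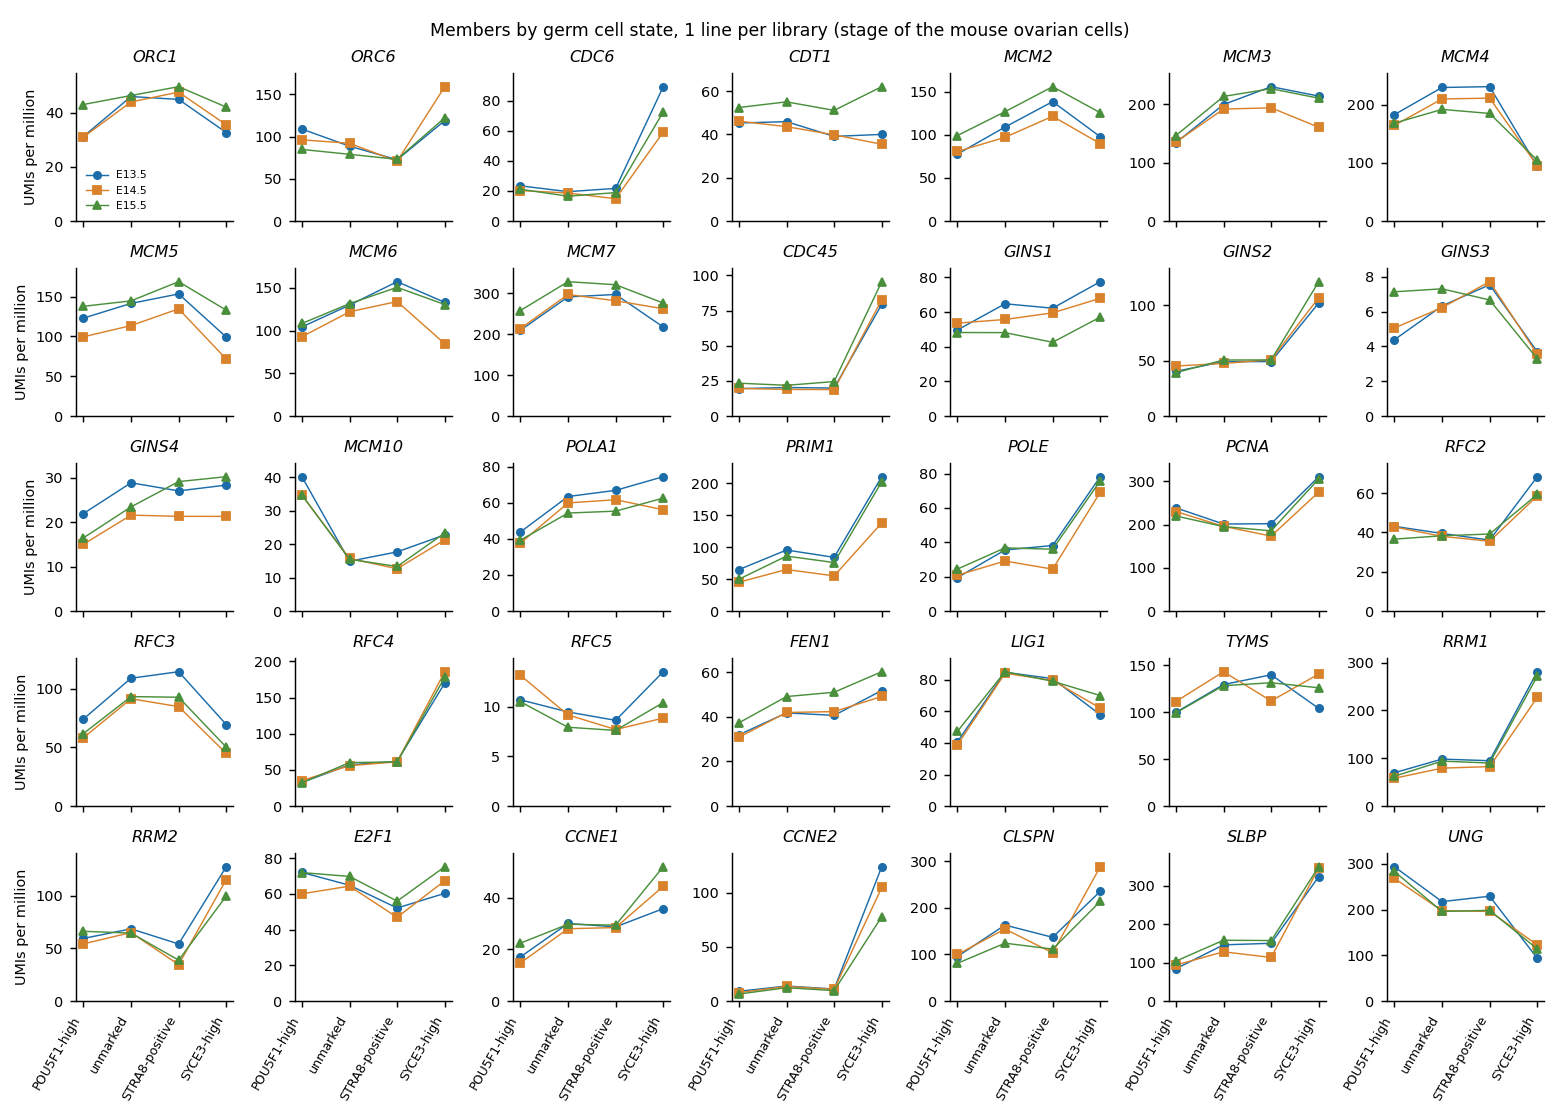
Level of each of the 35 members in the 4 germ cell states, in CPM of the summed cells, with 1 line per library and a separate scale from 0 for each gene. CCNE2, CDC6, CDC45 and RRM1 are highest in SYCE3-high cells of all 3 libraries, and MCM4 and UNG lowest.

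The comparison of SYCE3-high with STRA8-positive cells asks which replication genes stay on in meiotic cells. SYCE3-high cells are called meiotic here and STRA8-positive cells premeiotic by these genes alone. Of the SYCE3-high cells 69.1 ± 0.455% were S-gated (mean ± SD, n = 3 libraries). Whether they were still in premeiotic S phase or already in prophase was not tested. Of the 35 members, 17 rose and 11 fell at an adjusted p under 0.05 (edgeR quasi-likelihood test on UMIs summed by library and state, library as block, Benjamini-Hochberg over 15327 genes), and 7 were not called. Among all genes tested 26.7% were called higher and 26.7% lower. The median log2 fold change was 0.32 over the members and -0.02 over all genes. All 28 called members moved the same way in 3 of 3 libraries. The 10 members that rose by 2-fold or more were CCNE2, CDC45, CDC6, RRM1, RFC4, RRM2, PRIM1, SLBP, GINS2 and POLE. All 6 subunits of the MCM2-7 helicase were called lower, of which MCM4 and MCM5 were called under all alternatives and MCM2, MCM3, MCM6 and MCM7 under some only. Leaving out 1 library at a time gave 14 to 17 higher and 10 to 12 lower members. The p-values measure how evenly the states differed over 3 libraries of 1 cell line that differ in mouse stage. Differences between whole libraries were taken out by the block, and all 12 sums shared 1 estimate of the spread (6 residual degrees of freedom). The states were set from the same cells that were then tested.

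**Figure D3:**
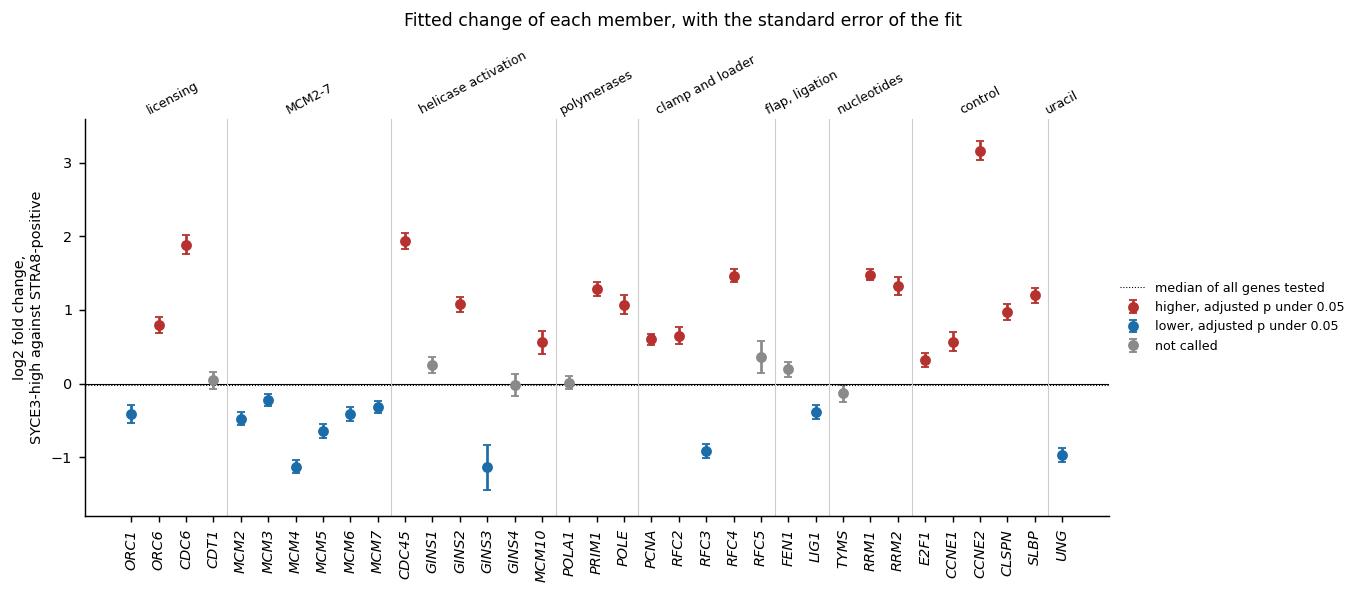
Fitted log2 fold change of each member in SYCE3-high against STRA8-positive cells, ordered by role, with the standard error of the fit as bars. Red and blue points have an adjusted p under 0.05, grey points do not. CCNE2 stands highest at 3.16, and MCM2 to MCM7 all lie below 0.

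All 5 genes of S phase timing and checkpoint control were called higher, beside 26.7% of all genes, CCNE1 and E2F1 under some alternatives only. CCNE2 encodes a cyclin E, which activates CDK2 at the G1 to S boundary. It stood at 11.1, 10.8 and 9.63 CPM in STRA8-positive cells of the E13.5, E14.5 and E15.5 libraries and at 124, 105 and 77.7 CPM in SYCE3-high cells. Every SYCE3-high value was several-fold above every value of the other states, none of which passed 13.8 CPM (log2 fold change 3.16 ± 0.13, adjusted p = 8.06e-13, edgeR, with ± for the standard error of the fit here and below). After thinning, a CCNE2 UMI was seen in 52.8%, 48.7% and 47.1% of SYCE3-high cells and in 9.42%, 8.89% and 6.55% of STRA8-positive cells, against 0.877%, 4.05% and 2.80% of mouse barcodes. Without thinning the shares were 77.8%, 74.4% and 85.7% against 32.6%, 23.3% and 30.2%. In the RefSeq annotation of assembly T2T-MFA8v1.1 CCNE2 overlaps INTS8, so reads of one could be counted for the other.

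The second cyclin E gene, CCNE1, moved far less. It stood at 28.7, 28.4 and 29.3 CPM in STRA8-positive cells and at 35.7, 44.3 and 51.9 CPM in SYCE3-high cells (log2 fold change 0.57 ± 0.13, adjusted p = 0.00147, edgeR). The groups did not overlap, but the call was lost without the E15.5 library (0.46, adjusted p = 0.0566) and with the SYCE3 limit at 200 CPM (0.22, adjusted p = 0.173, edgeR). E2F1, a transcription factor that turns on S phase genes, changed by 0.32 ± 0.10 (adjusted p = 0.00998, edgeR), from 52.1, 46.9 and 56.0 CPM to 60.3, 67.4 and 75.3 CPM. Its call was lost without the E14.5 library (0.23, adjusted p = 0.123) and without the E15.5 library (0.33, adjusted p = 0.0815). It was also lost with the SYCE3 limit at 200 CPM (0.054, adjusted p = 0.683), with the STRA8 limit at 20 CPM (0.18, adjusted p = 0.107) and without the count filter (0.24, adjusted p = 0.123, edgeR). CLSPN, whose product claspin carries the replication checkpoint signal to CHK1, rose from 137, 103 and 111 CPM to 235, 288 and 214 CPM (log2 fold change 0.97 ± 0.11, adjusted p = 4.42e-07, edgeR). SLBP, which binds the stem-loop of histone mRNAs and serves histone supply in S phase, rose from 151, 114 and 158 CPM to 324, 347 and 350.2 CPM (log2 fold change 1.20 ± 0.10, adjusted p = 1.4e-08, edgeR). For both genes the lowest SYCE3-high library was above the highest STRA8-positive library.

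Genes of origin licensing split. CDC6, the ATPase that joins ORC to recruit the helicase, stood at 21.7, 14.8 and 18.9 CPM in STRA8-positive cells and at 89.3, 59.1 and 72.5 CPM in SYCE3-high cells. The SYCE3-high values were 3.84 to 4.12 times those of the STRA8-positive cells of the same library (log2 fold change 1.89 ± 0.13, adjusted p = 6.13e-10, edgeR). ORC6, the smallest subunit of the origin recognition complex, rose from 72.6, 70.7 and 73.0 CPM to 119, 159 and 122 CPM (log2 fold change 0.79 ± 0.10, adjusted p = 3.68e-06, edgeR), while ORC1, the largest subunit, fell by 0.42 on the log2 scale (adjusted p = 0.00699, edgeR). ORC1 stood at 44.9, 47.5 and 49.5 CPM against 32.6, 35.5 and 42.0 CPM, which do not overlap, yet the call was lost under 3 alternatives. CDT1, which brings MCM2-7 to origins, was not called, at 39.1, 39.8 and 51.1 CPM and 40.0, 35.5 and 62.1 CPM (log2 fold change 0.04 ± 0.12, adjusted p = 0.783, edgeR).

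The 6 genes of the replicative helicase ring were all called lower, beside 26.7% of all genes. MCM4 fell most: it stood at 231, 211 and 185 CPM in STRA8-positive cells and at 94.2, 95.2 and 105 CPM in SYCE3-high cells (log2 fold change -1.13 ± 0.09, adjusted p = 3.91e-09, edgeR). The highest SYCE3-high library lay well below the lowest library of each other state. MCM5 stood at 153, 134.6 and 169 CPM and 99.1, 71.5 and 133 CPM in the same 2 states (log2 fold change -0.64 ± 0.09, adjusted p = 1.23e-05, edgeR), with no overlap between them, and MCM4 and MCM5 were the MCM genes called under all 18 alternatives. MCM2 (-0.48 ± 0.09), MCM6 (-0.41 ± 0.09), MCM7 (-0.32 ± 0.08) and MCM3 (-0.22 ± 0.09) had smaller changes, with adjusted p of 0.000158, 0.00126, 0.00195 and 0.0334 (edgeR). MCM3 had 230.4, 194 and 227 CPM against 214, 161 and 211 CPM, so the groups overlapped, and it was not called with library totals in place of TMM factors (-0.15, adjusted p = 0.111), without the E13.5 library (adjusted p = 0.0506) or without the E15.5 library (adjusted p = 0.176). MCM6 was at -0.08 (adjusted p = 0.674) in thinned cells and MCM7 at -0.00092 without barcodes listed in another library. Both calls were lost there and with STRA8-positive cells taken from 100 CPM. MCM RNA was still found in meiotic cells. MCM7, for example, stood at 217, 262 and 276 CPM in SYCE3-high cells, and after thinning a UMI was seen in 86.1%, 87.2% and 90.0% of them, against 24.1% to 31.1% of mouse barcodes.

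Among the genes that activate the helicase, CDC45 stood apart. CDC45, which with GINS completes the active helicase, stood at 19.9, 18.8 and 24.5 CPM in STRA8-positive cells and at 79.4, 82.8 and 95.6 CPM in SYCE3-high cells (log2 fold change 1.94 ± 0.11, adjusted p = 4.47e-11, edgeR). In the other 3 states its level lay between 18.8 and 24.5 CPM in every library, while with TMM factors it was called lower in STRA8-positive (log2 fold change -0.50 ± 0.11, adjusted p = 0.000533) and unmarked cells (log2 fold change -0.54 ± 0.10, adjusted p = 0.000107) than in POU5F1-high cells (edgeR). The GINS complex has 4 subunits whose RNAs moved apart. GINS2 rose from 49.2, 50.9 and 50.7 CPM to 102, 107 and 121 CPM (log2 fold change 1.07 ± 0.10, adjusted p = 2.85e-08, edgeR). GINS3 fell from 7.54, 7.72 and 6.67 CPM to 3.69, 3.55 and 3.30 CPM (log2 fold change -1.14 ± 0.30, adjusted p = 0.00362, edgeR), at the lowest counts of any member. GINS1 (0.25 ± 0.11, adjusted p = 0.0645) and GINS4 (-0.02 ± 0.15, adjusted p = 0.918) were not called by edgeR. GINS1 was called higher with library totals (0.32, adjusted p = 0.0196) and with DESeq2 size factors (0.27, adjusted p = 0.0418). It was also called higher with the POU5F1 limit at 100 CPM (0.26, adjusted p = 0.0354) and the STRA8 limit at 100 CPM (0.55, adjusted p = 0.000979, edgeR). For GINS4 the mouse barcodes held 41.6, 25.6 and 41.1 CPM, more than the 27.5, 19.7 and 23.6 CPM of all germ cells, and the part of mouse RNA in its germ cell values was not tested. MCM10, which helps activate CDC45-MCM-GINS, stood at 17.7, 12.7 and 13.3 CPM and 22.8, 21.3 and 23.3 CPM (log2 fold change 0.56 ± 0.16, adjusted p = 0.00538, edgeR), and its call was lost without the E15.5 library (0.46, adjusted p = 0.126). It was also lost in thinned cells (0.33, adjusted p = 0.462), with the SYCE3 limit at 200 CPM (0.21, adjusted p = 0.242) and without barcodes with mouse marker RNA (0.48, adjusted p = 0.0560, edgeR).

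Of the polymerase and primase genes, PRIM1 and POLE rose and POLA1 was not called. PRIM1, the primase subunit that makes the RNA primers, stood at 83.9, 55.0 and 75.8 CPM in STRA8-positive cells and at 210.0, 138 and 202 CPM in SYCE3-high cells (log2 fold change 1.29 ± 0.09, adjusted p = 1.01e-09, edgeR). POLE, the catalytic subunit of the leading strand polymerase epsilon, stood at 24.4 to 38.1 CPM over the 3 STRA8-positive libraries and at 78.2, 69.2 and 75.8 CPM in SYCE3-high cells (log2 fold change 1.07 ± 0.12, adjusted p = 6.98e-07, edgeR). Neither gene overlapped between the states. POLA1, the catalytic subunit of polymerase alpha, which extends the primers, had 66.9, 61.7 and 55.4 CPM and 74.5, 56.2 and 62.6 CPM (log2 fold change 0.01 ± 0.09, adjusted p = 0.918, edgeR), with overlapping groups.

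The sliding clamp and its loader were unequal too. PCNA, the clamp that holds polymerases on DNA, rose from 202, 173 and 186 CPM to 311, 275 and 306 CPM (log2 fold change 0.60 ± 0.08, adjusted p = 1.98e-06, edgeR), without overlap. Of the 4 small subunits of the clamp loader, RFC4 rose from 61.9, 61.1 and 61.0 CPM to 169.9, 186 and 178 CPM (log2 fold change 1.46 ± 0.09, adjusted p = 9.42e-11, edgeR) and RFC2 from 36.1, 35.5 and 39.2 CPM to 68.3, 58.5 and 59.3 CPM (log2 fold change 0.65 ± 0.11, adjusted p = 7.79e-05, edgeR). RFC3 fell from 115, 84.9 and 92.9 CPM to 69.6, 44.9 and 50.3 CPM (log2 fold change -0.91 ± 0.10, adjusted p = 2.46e-07, edgeR), and its mouse barcodes held 40.9, 50.6 and 51.4 CPM, close to the SYCE3-high values. RFC5, at 8.64, 7.72 and 7.63 CPM and 13.55, 8.87 and 10.4 CPM, was not called (adjusted p = 0.161, edgeR). RFC4 overlaps EIF4A2 and RFC3 overlaps several non-coding genes in the same RefSeq annotation.

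Neither gene that finishes Okazaki fragments was called higher. LIG1, the ligase that seals them, fell from 80.8, 79.6 and 79.1 CPM to 57.9, 62.1 and 70.0 CPM (log2 fold change -0.39 ± 0.10, adjusted p = 0.00212, edgeR), without overlap, and its call was lost under 2 alternatives. FEN1, the flap endonuclease that trims them, was not called, at 40.6, 42.3 and 51.0 CPM and 51.7, 49.1 and 60.1 CPM (log2 fold change 0.19 ± 0.10, adjusted p = 0.106, edgeR), though with library totals it was called higher (0.27, adjusted p = 0.0270). UNG, the glycosylase that removes uracil from DNA, fell from 229, 196 and 198 CPM to 93.6, 123 and 114 CPM (log2 fold change -0.97 ± 0.10, adjusted p = 1.28e-07, edgeR), and no library of SYCE3-high cells reached any library of another state.

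Among the genes of nucleotide supply, the RNAs of ribonucleotide reductase rose. RRM1, its large subunit, stood at 94.8, 82.4 and 90.0 CPM in STRA8-positive cells and at 281, 227 and 271 CPM in SYCE3-high cells (log2 fold change 1.48 ± 0.08, adjusted p = 1.43e-11, edgeR). After thinning, an RRM1 UMI was seen in 94.4%, 84.6% and 97.1% of SYCE3-high cells against 48.6%, 47.8% and 58.9% of STRA8-positive cells and 14.0%, 18.2% and 19.9% of mouse barcodes. RRM2, the small subunit that is usually made in S phase, rose from 54.2, 34.6 and 38.8 CPM to 127, 115 and 99.7 CPM (log2 fold change 1.33 ± 0.13, adjusted p = 5.49e-08, edgeR). TYMS, which makes thymidylate, was not called, at 139.9, 112 and 131 CPM and 104, 141 and 126 CPM (log2 fold change -0.13 ± 0.11, adjusted p = 0.336, edgeR). It was called lower without the E14.5 library (-0.33, adjusted p = 0.0126) and with the STRA8 limit at 20 CPM (-0.21, adjusted p = 0.0458, edgeR).

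Leaving out the germ barcodes listed in another library left 45 SYCE3-high and 320 STRA8-positive cells, which took a larger share of the SYCE3-high cells. Sums under 20 cells were dropped, so not every library kept a SYCE3-high sum. That fit held 10 sums and 4 residual degrees of freedom, and only its effect sizes are given. Of the members that lost their calls there, GINS3 (-1.21) and MCM10 (0.88) had log2 fold changes no smaller than with all cells. CCNE1 (0.38), E2F1 (0.26), ORC1 (-0.30), MCM2 (-0.30), LIG1 (-0.14) and MCM3 (-0.12) had smaller ones, and MCM7 was near 0. Of the 28 calls, 18 were kept under all 18 alternatives: CCNE2, CDC45, CDC6, CLSPN, GINS2, ORC6, PCNA, POLE, PRIM1, RFC2, RFC4, RRM1, RRM2 and SLBP higher, and MCM4, MCM5, RFC3 and UNG lower. These 18 alternatives include the fit without barcodes listed in another library, which held fewer sums. GINS3 and MCM2 lost their calls in that fit only, so their absence from the list rests on it. Of the 12 genes behind the S gate, none of them a member, 6 rose and 2 fell in the same comparison, beside 26.7% of all genes in each direction. FAM111B was highest (3.65) and CDCA7 lowest (-1.30), both named after their values were seen. Only some of the gate's genes were thus higher in SYCE3-high cells. Barcodes with 100 CPM or more over 6 mouse ovarian markers made up 35.2% of SYCE3-high and 32.6% of STRA8-positive cells. Without them the members that rose and fell numbered 16 and 11. That fit lacked the E13.5 sum of SYCE3-high cells, where 17 of 36 cells were such barcodes and fewer than 20 remained. It held 11 sums and 5 residual degrees of freedom. The 6 mouse supporting cell markers summed to 53.2 and 43.7 CPM in these states against 1120 to 1389 CPM in mouse barcodes.

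Binning the germ cells outside the POU5F1-high state by their own SYCE3 level showed at which SYCE3 levels the members moved. The summed members went from 3161 CPM below 50 CPM of SYCE3 down to 2659 CPM at 200 to 400 CPM, then up to 3373 CPM at 400 to 800 CPM and 4659 CPM at 800 CPM or more (means of 3 libraries). The 3 libraries spanned 2552 to 2805 CPM in the 200 to 400 bin and 4524 to 4834 CPM in the top bin, so these bins did not overlap. The share of S-gated cells followed the same course, from 36.7% to 23.1%, 45.8% and 94.3% in the same bins. Of the 35 members, 12 were lowest at 200 to 400 CPM and 22 were highest at 800 CPM or more. The same was not counted over all genes, so these counts are not known to be particular to the members. The bins at 400 to 800 and at 800 CPM or more held 19 and 17 cells in E13.5 and 21 and 18 cells in E14.5, so they are thinly filled, and the bins carry no test. In E15.5, with 34 and 36 cells in these bins, the sum went from 2805 CPM at 200 to 400 CPM of SYCE3 to 3576 and 4621 CPM.

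**Figure D4:**
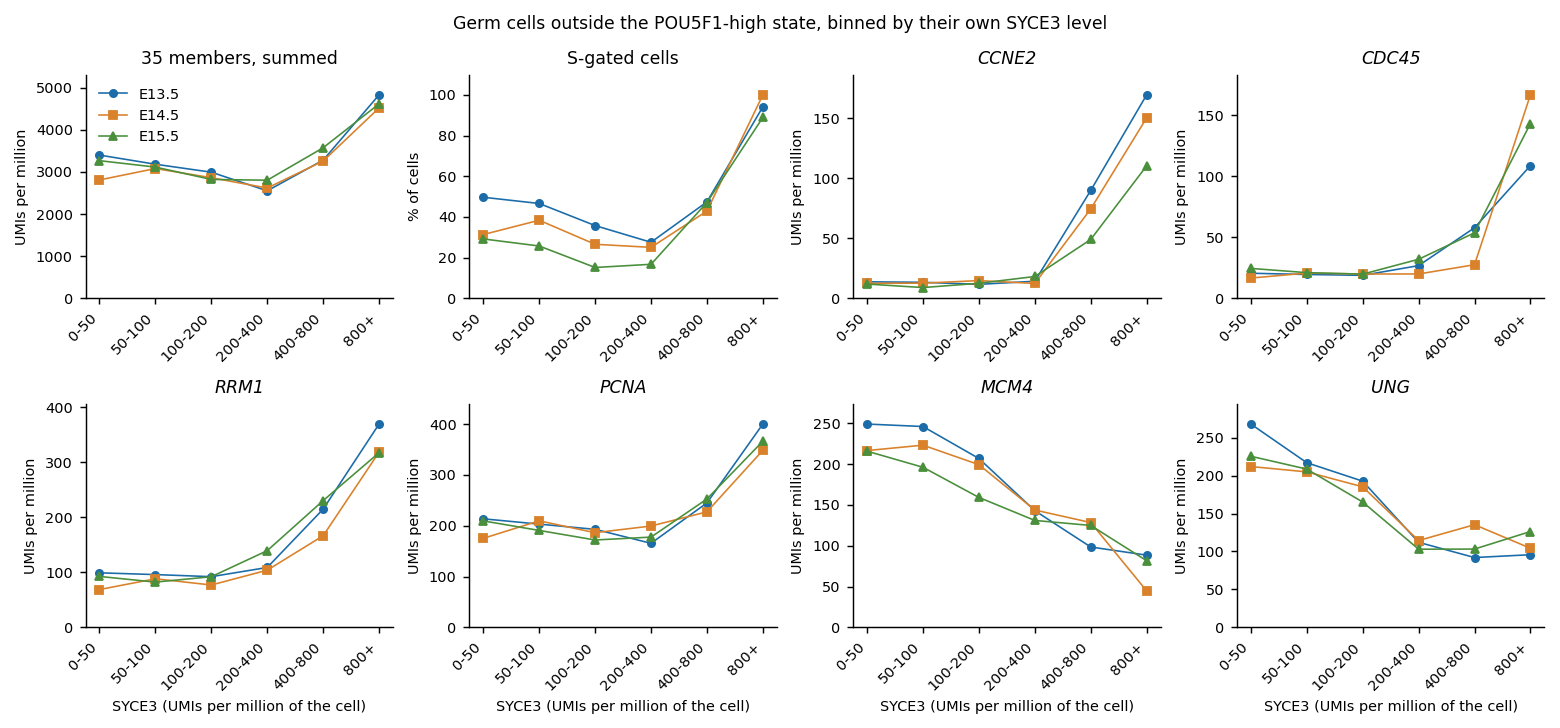
Germ cells outside the POU5F1-high state in 6 bins of SYCE3 (x axis, CPM of the cell), with 1 line per library. The panels give the members' sum and 6 members in CPM and the share of S-gated cells in percent. CCNE2 and CDC45 leave their base level only in the upper bins, while MCM4 and UNG are lower from the middle bins on.

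CCNE2 stayed between 11.6 and 14.8 CPM in the 4 lower bins, reached 71.1 CPM at 400 to 800 CPM of SYCE3 and 144 CPM above (means of 3 libraries). CDC45 stood at 19.4 to 26.2 CPM in the 4 lower bins, at 46.3 CPM in the fifth and at 140 CPM in the top bin. RRM1 went from 86.9 CPM to 118 CPM at 200 to 400 CPM of SYCE3, then to 204 and 335 CPM. These 3 genes had their largest step in bins that already carried much SYCE3 RNA. MCM4 went the other way, with 227 CPM in the lowest bin and 188, 139, 117 and 71.6 CPM in the last 4. UNG had 235 CPM in the lowest bin and 109.8, 110.2 and 109 CPM in the last 3. MCM3 had means of 183 to 216 CPM in the 6 bins, with 124 to 232 CPM over the libraries of the top bin.

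A member was counted as staying on in meiotic cells where its level in SYCE3-high cells was at least 20 CPM and at least 50% of that in STRA8-positive cells of each library. By this rule 31 of the 35 members stayed on. Of the 29 with 20 CPM or more in STRA8-positive cells of every library 27 did, or all but MCM4 and UNG, beside 82.2% of the 6883 genes of that level. MCM4 stood at 0.407 to 0.565 times and UNG at 0.408 to 0.627 times its STRA8-positive level in the 3 libraries. The other members that did not pass were GINS3 and RFC5, both under 20 CPM in every state.

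The comparison of STRA8-positive with POU5F1-high cells sets premeiotic against early mitotic germ cells, and its answer depended on the scaling. With TMM factors, which centre the bulk of genes, 2 members were higher and 15 lower in STRA8-positive cells (edgeR), beside 35.2% and 34.2% of all genes, with a median of -0.16 over the members and 0.04 over all genes. With library totals, 22 members were higher and 7 lower, beside 58.5% and 17.0% of all genes, and the medians were 0.37 and 0.56. The TMM factors were 0.70 to 0.79 in the POU5F1-high sums and 1.03 to 1.18 in all others, which moves every gene by about the same amount. Barcodes with mouse marker RNA made up 32.6% of STRA8-positive, 25.3% of unmarked and 3.68% of POU5F1-high cells, and the 6 mouse stromal markers summed to 97.0, 73.7 and 28.01 CPM. Without those barcodes 3 members were higher and 13 lower with TMM factors: MCM2 was gained (0.21, adjusted p = 0.0278, edgeR) and the calls of MCM5 (-0.12) and GINS2 (-0.19) were lost. Leaving out the E14.5 library gave 5 higher members with TMM factors and leaving out the E15.5 library 1. Under both scalings the members' median lay below that of all genes. Members called the same way under both were RFC4 and LIG1 higher, and MCM10, RRM2, RFC5, UNG, ORC6, E2F1 and PCNA lower.

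**Figure D5:**
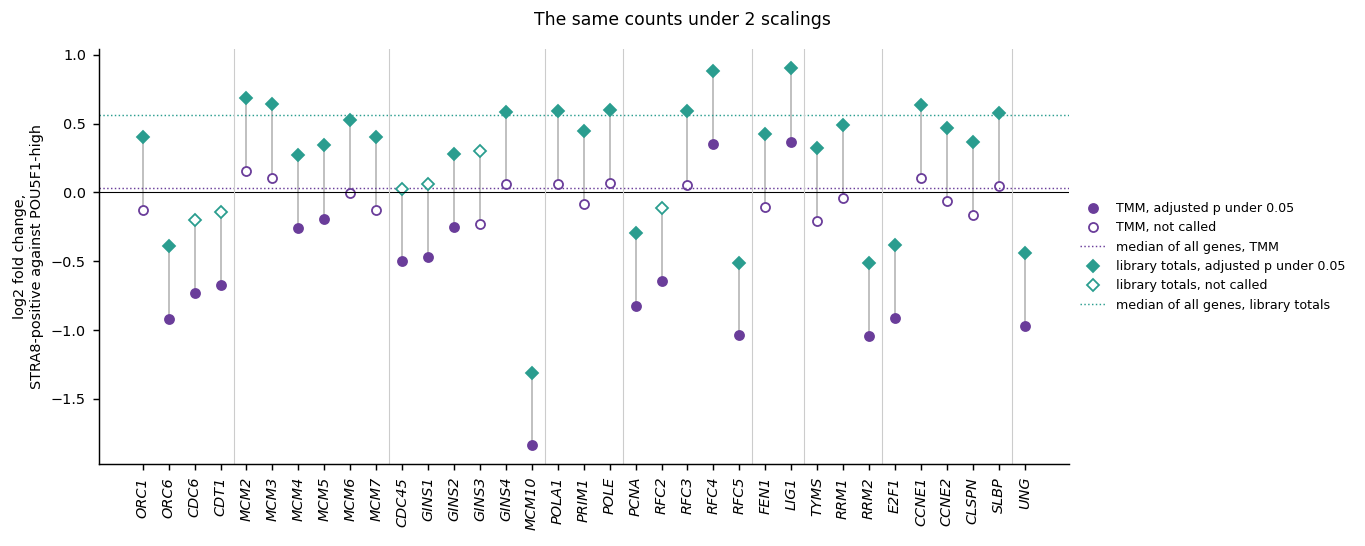
Log2 fold change of each member in STRA8-positive against POU5F1-high cells with TMM factors (circles) and with library totals (diamonds), filled where the adjusted p was under 0.05, and the median of all genes under each scaling as dotted lines. MCM10 is lowest under both scalings, and LIG1 and RFC4 are highest.

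MCM10 marked the early cells most. It stood at 40.2, 34.6 and 34.7 CPM in POU5F1-high cells and at 17.7, 12.7 and 13.3 CPM in STRA8-positive cells (log2 fold change -1.84 ± 0.12, adjusted p = 1.11e-10, edgeR with TMM, and -1.31 with library totals). Every early library was above every premeiotic one. MCM10 overlaps OPTN in the RefSeq annotation. PCNA stood at 239, 230.2 and 220.0 CPM in POU5F1-high cells and 202, 173 and 186 CPM in STRA8-positive cells (log2 fold change -0.83 ± 0.07, adjusted p = 6.16e-09, and -0.29 with library totals, edgeR). UNG stood at 294, 268 and 283 CPM and 229, 196 and 198 CPM (log2 fold change -0.97 ± 0.09, adjusted p = 6.37e-09, and -0.44 with library totals, edgeR). Neither gene overlapped between the states.

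E2F1 stood at 72.1, 60.1 and 72.0 CPM in POU5F1-high cells and 52.1, 46.9 and 56.0 CPM in STRA8-positive cells (log2 fold change -0.91 ± 0.09, adjusted p = 1.46e-08, edgeR). ORC6 stood at 109, 96.1 and 84.7 CPM and 72.6, 70.7 and 73.0 CPM (log2 fold change -0.92 ± 0.10, adjusted p = 8.55e-08, edgeR). RRM2 stood at 59.4, 54.3 and 66.2 CPM and 54.2, 34.6 and 38.8 CPM (log2 fold change -1.04 ± 0.12, adjusted p = 2.18e-07, edgeR), with the lowest early and the highest premeiotic library nearly equal. LIG1 was higher in the premeiotic cells, at 80.8, 79.6 and 79.1 CPM against 40.7, 38.8 and 47.3 CPM (log2 fold change 0.37 ± 0.09, adjusted p = 0.000791, edgeR). RFC4 was higher too, at 61.9, 61.1 and 61.0 CPM against 32.6, 35.3 and 32.2 CPM (log2 fold change 0.35 ± 0.09, adjusted p = 0.00184, edgeR). Its TMM call was lost without the E15.5 library (0.31, adjusted p = 0.0504) and in thinned cells (0.35, adjusted p = 0.0514). With the STRA8 limit at 100 CPM it was lost as well (0.19, adjusted p = 0.115, edgeR).

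The helicase subunits show what the scaling does. In CPM all 6 were higher in STRA8-positive cells of every library, for example MCM2 at 139, 122 and 156 CPM against 77.7, 80.8 and 99.2 CPM. With TMM factors MCM2 (0.15) and MCM3 (0.11) were above 0 and not called, MCM6 (-0.01) and MCM7 (-0.13) below 0 and not called, and MCM4 (-0.26) and MCM5 (-0.19) called lower, whereas with library totals all 6 were called higher, between 0.28 and 0.69 on the log2 scale. The TMM call of MCM5 (adjusted p = 0.0492, edgeR) was lost without any 1 of the libraries, and that of MCM4 without the E15.5 library (adjusted p = 0.0863). MCM2 and MCM3 lay above 0 under both scalings, and none of the 6 was called the same way under both.

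The comparison was repeated in S-gated cells, to set early and premeiotic cells with much S phase RNA side by side. The gate was cut on CPM, so the cells it kept depend on that scaling. With TMM factors 1 of the 12 gate genes was higher and 8 were lower in STRA8-positive than in POU5F1-high cells (edgeR, all cells). This stands beside 35.2% and 34.2% of all genes, and the median of the 12 was -0.63 on the log2 scale. The gate kept 133 POU5F1-high, 359 unmarked and 134 STRA8-positive cells, and the E14.5 sum of STRA8-positive cells was left out with 18 cells, which leaves 8 sums and 3 residual degrees of freedom. In these cells 5 members were higher and 13 lower in STRA8-positive against POU5F1-high cells (edgeR with TMM), beside 31.6% and 30.7% of all genes. With library totals 19 were higher and 6 lower, beside 51.8% and 15.8% of all genes. The higher members numbered 2 without the E13.5 library, 1 with the gate narrowed to the upper 25% of germ cells, where GINS4, LIG1, MCM2 and MCM3 lost their calls, and 2 with it widened to the upper 50%. Of the members called with TMM, 2 of the 5 higher and 12 of the 13 lower were also called that way over all cells. MCM10 (log2 fold change -1.71 ± 0.16, adjusted p = 6.06e-12), RRM2 (log2 fold change -1.25 ± 0.13, adjusted p = 5.29e-11) and RFC5 (log2 fold change -1.12 ± 0.23, adjusted p = 5.57e-05) were the lowest, by edgeR, each lower in 2 of 2 libraries.

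The comparison of STRA8-positive with unmarked cells sets premeiotic against other germ cells that have left the POU5F1-high state. Few members moved: 1 was higher and 2 lower (edgeR), beside 2.56% and 4.36% of all genes, and the scaling did not change these calls. RRM2 stood at 68.5, 65.0 and 64.5 CPM in unmarked cells and 54.2, 34.6 and 38.8 CPM in STRA8-positive cells (log2 fold change -0.65 ± 0.11, adjusted p = 0.00178, edgeR). Its premeiotic values were below all unmarked ones, but the call was lost without the E15.5 library (-0.60, adjusted p = 0.0695). E2F1 was lower (log2 fold change -0.38 ± 0.08, adjusted p = 0.00830) and MCM2 higher (log2 fold change 0.30 ± 0.08, adjusted p = 0.0232) by edgeR, and each call was lost when any 1 of the 3 libraries was left out. In S-gated cells 0 members were higher and 1 was lower (edgeR), beside 1.52% and 2.48% of all genes: RRM2, at -0.52 ± 0.12 (adjusted p = 0.00790), a call lost without the E15.5 library (-0.13, adjusted p = 0.828). The STRA8 limit bears on these counts, since at 100 CPM in place of 50 CPM 8 members were lower and 0 higher.

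Unmarked cells against POU5F1-high cells gave 2 members higher and 15 lower with TMM factors (edgeR), beside 35.3% and 33.4% of all genes, and 21 higher and 4 lower with library totals, 25 in all, beside 75.7% of all genes called in either direction. With TMM factors the higher members numbered 1 without the E13.5 or the E15.5 library and 4 without the E14.5 library. This comparison shares the POU5F1-high sums with that of STRA8-positive cells, so the values are only set side by side. MCM10 changed by -1.75 in unmarked and -1.84 in STRA8-positive cells, UNG by -0.98 and -0.97, PCNA by -0.72 and -0.83, RFC5 by -0.89 and -1.04, and LIG1 by 0.49 and 0.37 (log2, TMM). RRM2 changed by -0.39 in unmarked and -1.04 in STRA8-positive cells.

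Other genes of replication moved in both directions as well. Of 47 further replication genes, some of which also serve in the S gate, 16 rose and 13 fell in SYCE3-high against STRA8-positive cells (edgeR), beside 26.7% of all genes in each direction, with a median of 0.06. TIPIN, a partner of TIMELESS at the fork, rose by 1.31, and UHRF1, which guides maintenance methylation of new DNA, fell by 1.10 on the log2 scale. In STRA8-positive against POU5F1-high cells 9 of the 47 were higher and 23 lower with TMM factors, beside 35.2% and 34.2% of all genes, and 25 higher and 9 lower with library totals, beside 58.5% and 17.0%. With TMM factors these included WDHD1, which couples helicase and polymerase alpha, at 1.50 and TK1, the thymidine salvage kinase, at -1.52. Among the 3 MCM paralogs of meiosis and repair, MCMDC2, which is needed for meiotic recombination, was higher in SYCE3-high than in STRA8-positive cells (0.72 ± 0.21, adjusted p = 0.00746, edgeR), and MCM8 and MCM9 were not called with TMM factors.

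Genes of G2 and M phase gave other counts than the members. Of 24 such genes, 0 were higher and 19 lower in STRA8-positive against unmarked cells (edgeR), beside 2.56% and 4.36% of all genes. In the same comparison 3 of 35 members changed. Among S-gated cells 20 of 24 were lower, beside 2.48% of all genes. AURKB, the kinase of the chromosomal passenger complex, was lowest (-1.26 ± 0.14, adjusted p = 4.14e-05, edgeR). In SYCE3-high against STRA8-positive cells 6 of the 24 rose and 4 fell, beside 26.7% of all genes in each direction. The called genes of the 24 included CCNA2, the S and G2 phase cyclin A (-1.20), and NUSAP1, a spindle protein (1.12). Of 24 tested genes of the E2F family and cell cycle control, 8 rose and 8 fell in that comparison, beside the same 26.7% in each direction. CDKN2A, whose products include an inhibitor of the G1 kinases, rose by 2.48 and the D-type cyclin CCND2 fell by 1.16 on the log2 scale.

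Between libraries no member differed by 2-fold or more in germ cells, at 20 CPM or more in 1 library of a pair on log2(CPM + 1). Of all genes of that level 0.498% did between E14.5 and E13.5, 0.238% between E15.5 and E13.5 and 0.324% between E15.5 and E14.5. With 1 library for each mouse stage there is no test. The widest member was PRIM1, at 94.6, 63.3 and 82.4 CPM in the E13.5, E14.5 and E15.5 libraries. Within SYCE3-high cells the widest difference was that of MCM5 between E15.5 and E14.5 (0.88 on the log2 scale), at 133 and 71.5 CPM. CCNE2 was 0.66 lower in E15.5 than in E13.5 SYCE3-high cells on the same scale, the opposite order to CDT1, which was 0.62 higher.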

How the data were processed

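Single-cell RNA was measured in 3 libraries. The deposited matrices hold whole UMI counts per gene and barcode, which the authors made with Cell Ranger 6.0.1 and reduced to called barcodes, per the file headers; the genome build is not given in the sources used here. Of the 2807, 1565 and 3455 deposited barcodes, germ cells were kept by mitochondrial share and depth as stated above. Left out were 114, 81 and 164 barcodes with over 20% mitochondrial UMIs. Also left out were 6 cells that passed the POU5F1 limit together with the SYCE3 or STRA8 limit. No doublet caller was run; barcodes with mouse marker RNA were left out in an alternative. Counts were summed by library and state (12 sums) and tested with edgeR 4.0.16 (limma 3.58.1, R 4.3.3): filterByExpr, TMM factors, glmQLFit and glmQLFTest with the library as block, Benjamini-Hochberg adjustment over 15327 genes, calls at an adjusted p under 0.05. The block pairs states because their cells come from the same library. The 3 state genes were left out of the test, as were the 12 gate genes among S-gated cells (13445 genes, sums of at least 20 cells). Shares of cells used cells thinned to 10000 UMIs, leaving out mouse barcodes below that depth. Shares and single-library values carry counting error only. The rest ran in Python 3.11.15 with scipy 1.17.1, pandas 2.3.3, matplotlib 3.10.9 and numpy 2.4.6, and DESeq2 1.42.0 as an alternative. The test was checked on simulated counts. All 35 members were eligible to be named, and of other lists up to 4 genes per comparison with the largest called change in the same direction in all libraries. Members and lists were chosen with earlier results of these data known. Alternatives were other scalings, no filter, DESeq2, no block, each library left out, other depth and state limits, thinning and other gates; library totals and the removal of barcodes listed in another library were chosen after seeing the data.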

Additional observations from a re-analysis of the deposited data

How the results depend on the processing

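Of the values of single members, 2707 kept direction and side of the threshold under an alternative, 107 lost a call, 84 gained one and 42 reversed. Nearly all reversals came with library totals in place of TMM factors, against POU5F1-high cells, where the sums' factors differ. With library totals the log2 fold changes that reversed to above 0 were, for STRA8-positive against POU5F1-high cells, CCNE2 0.47, CDC45 0.028, CLSPN 0.37, FEN1 0.42, GINS1 0.064, GINS2 0.28, MCM4 0.28, MCM5 0.34, MCM6 0.53, MCM7 0.41, ORC1 0.40, PRIM1 0.44, RRM1 0.49 and TYMS 0.33; among S-gated cells, CCNE1 0.40, CLSPN 0.39, FEN1 0.31, GINS2 0.18, MCM4 0.36, MCM5 0.39, MCM6 0.47, MCM7 0.29, ORC1 0.41, POLA1 0.27, PRIM1 0.33, RRM1 0.45 and TYMS 0.048; and for unmarked against POU5F1-high cells, CDT1 0.014, FEN1 0.41, GINS1 0.13, GINS2 0.25, GINS4 0.50, MCM2 0.37, MCM4 0.29, MCM5 0.16, MCM6 0.33, MCM7 0.43, ORC1 0.36, RRM2 0.12 and TYMS 0.37. That scaling gave 22 higher and 7 lower members in the first comparison, 19 and 6 among S-gated cells, and 21 and 4 in the last; against unmarked cells it gave 1 higher S-gated member. The other reversals were RRM1 in unmarked against POU5F1-high cells without barcodes listed in another library (-0.21) and MCM3 in SYCE3-high against STRA8-positive cells with STRA8 cells from 100 CPM (0.0030); their cause was not tested.

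For SYCE3-high against STRA8-positive cells, the lower members numbered 6 with that STRA8 limit. Fewer were called lower without barcodes listed in another library, where not every library kept a SYCE3-high sum of at least 20 cells. For STRA8-positive against POU5F1-high cells, the higher members numbered 1 with STRA8 from 100 CPM and 1 to 5 with a library left out. For unmarked against POU5F1-high cells they numbered 4 after thinning, 5 without barcodes with mouse marker RNA, 4 without EGR4 or PIWIL4 cells and 1 to 4 with a library left out. For STRA8-positive against unmarked cells, the higher member was lost (0) without the library block, after thinning, with STRA8 from 100 CPM, without EGR4 or PIWIL4 cells and with each library left out (0 to 0); the lower members numbered 1 without the library block, 8 with STRA8 from 100 CPM, 5 without barcodes with mouse marker RNA and 0 to 1 with a library left out. Among S-gated cells, STRA8-positive against POU5F1-high gave 1 higher member with the gate at its upper 25%, 2 at its top 50% and 2 to 5 with a library left out. Against unmarked cells S-gated sums gave 0 lower members with the narrower gate, 4 with the wider and 0 to 2 with a library left out, and 0 to 1 higher. With 1 library left out of the S-gated fit, 1 or 2 residual degrees of freedom remain, and a lone sum is assumed to vary like the others. SYCE3-high sums hold 36 to 70 cells per library, which limits members at low counts such as GINS3.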

Other observations

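Among unmarked cells, those with at least 50 CPM of EGR4 or PIWIL4, genes known from male germline cells that have stopped dividing and from spermatogonial stem cells, held less replication RNA than the other unmarked cells of the same library. There were 4, 21 and 47 such cells in the E13.5, E14.5 and E15.5 libraries. Their 35 members summed to 1391, 1731 and 1603 CPM, against 3168, 3018 and 3229 CPM in the other unmarked cells. Their 24 genes of G2 and M phase summed to 1194, 1423 and 1596 CPM, against 4969, 4445 and 4332 CPM. Of these cells 0, 3 and 0 were S-gated. The cells were singled out after their values were seen, and the values carry no test.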
